A study of Mus musculus with 6 samples.

Results

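The regions described here are stretches of open chromatin at the starts of long noncoding RNA (lncRNA) genes in the S1 segment of the mouse kidney proximal tubule. ATAC-seq, in which a transposase inserts sequencing adapters into accessible DNA, was run on 6 libraries, each made from 3 hand-dissected tubules of wild-type male C57BL/6 mice operated on at 7 weeks of age. Tubules were collected 24 h later, from mice that had undergone either a mock operation (Sham, 3 libraries) or unilateral nephrectomy, the excision of 1 kidney (UNx, 3 libraries). No allele or agent other than the operation separates the groups, and the labels do not tie the libraries to separate mice, so p-values measure only the spread between these libraries, which may be technical. The 6 deposited peak lists were merged wherever intervals overlapped by at least 1 bp, and a region was kept when its strongest summit lay within 1 kb of an annotated start of a lncRNA gene and more than 1 kb from every protein-coding start. This gave 2257 regions of 126099 in all, against 17388 regions at protein-coding starts and 106454 elsewhere.

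lncRNAs are transcripts that encode no annotated protein and are mostly transcribed by RNA polymerase II from promoters of their own. Some act as structural RNAs in the nucleus, as hosts of small nucleolar RNAs (snoRNAs) or microRNAs, or in silencing imprinted genes and the X chromosome, while for many the act of transcription or the DNA itself is all that has been studied. Many arise next to, or antisense to, transcription factor genes of the same tissue. ATAC-seq has no strand, so open chromatin at a lncRNA start cannot be told apart from an enhancer or another promoter at the same place, and it does not measure the RNA.

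The 201 bp around the strongest summit are shown for 5 of the 6 regions called as different in strength between the operations. They are also shown for the 2 strongest lncRNA promoter regions of the catalogue, because the called and the strongest regions differ in base composition. Sequences are from GRCm38 (RefSeq assembly), written 5′ to 3′ on the strand of the lncRNA, with every CG pair in capitals. The first 3 regions, of Gm14549 (chrX:36814528-36814728, plus strand), Gm10390 (chr5:120138541-120138741, minus strand) and 1110002O04Rik (chr1:35880657-35880857, plus strand), were stronger after UNx. Those of Gm31816 (chr9:47362012-47362212, minus strand) and 4930447M23Rik (chr2:19344704-19344904, plus strand) were weaker after UNx. The last ones, of Gm17552 (chr19:4169519-4169719, plus strand) and Gm37494 (chr7:39552645-39552845, plus strand), had the highest mean strength.
Gm14549: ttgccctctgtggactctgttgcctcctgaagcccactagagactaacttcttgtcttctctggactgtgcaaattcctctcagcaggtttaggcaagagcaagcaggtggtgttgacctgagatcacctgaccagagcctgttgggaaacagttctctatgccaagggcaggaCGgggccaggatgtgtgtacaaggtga
Gm10390: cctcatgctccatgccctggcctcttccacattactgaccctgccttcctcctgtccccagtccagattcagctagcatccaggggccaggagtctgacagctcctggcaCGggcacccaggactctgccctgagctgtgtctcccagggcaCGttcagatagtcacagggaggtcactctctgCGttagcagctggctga
1110002O04Rik: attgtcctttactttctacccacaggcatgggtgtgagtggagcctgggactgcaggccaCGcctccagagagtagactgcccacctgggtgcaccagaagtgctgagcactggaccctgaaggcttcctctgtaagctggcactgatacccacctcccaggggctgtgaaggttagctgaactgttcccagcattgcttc
Gm31816: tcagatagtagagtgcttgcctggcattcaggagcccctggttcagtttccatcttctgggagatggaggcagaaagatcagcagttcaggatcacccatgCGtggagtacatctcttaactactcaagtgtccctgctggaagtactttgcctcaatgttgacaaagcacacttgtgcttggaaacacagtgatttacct
4930447M23Rik: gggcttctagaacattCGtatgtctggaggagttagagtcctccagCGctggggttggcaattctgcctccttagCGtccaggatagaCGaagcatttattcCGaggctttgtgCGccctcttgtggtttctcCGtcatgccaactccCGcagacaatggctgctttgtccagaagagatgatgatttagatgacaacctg
Gm17552: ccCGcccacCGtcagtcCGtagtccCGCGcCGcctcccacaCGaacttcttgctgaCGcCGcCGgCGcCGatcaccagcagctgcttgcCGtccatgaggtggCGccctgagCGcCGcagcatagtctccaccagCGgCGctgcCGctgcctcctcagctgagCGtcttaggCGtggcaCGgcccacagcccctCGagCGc
Gm37494: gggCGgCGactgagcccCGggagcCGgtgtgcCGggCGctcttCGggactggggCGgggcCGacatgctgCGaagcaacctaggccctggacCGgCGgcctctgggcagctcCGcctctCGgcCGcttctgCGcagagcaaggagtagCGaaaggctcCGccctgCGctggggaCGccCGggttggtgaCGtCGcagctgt
The called sequences shown held 1 to 8 CG pairs each, with 8 in 4930447M23Rik and at most 3 in the other 4, while Gm17552 held 24 and Gm37494 held 23. The median over all 2257 lncRNA promoter regions was 4 CG pairs per 201 bp, against 15 at protein-coding starts.

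The catalogue was broad and made up largely of poorly characterised transcripts. It covered 1840 of the 9793 lncRNA genes annotated. By annotated type, 1241 regions lay at lincRNA starts, 742 at antisense transcripts, 261 at processed transcripts and 13 at bidirectional promoter lncRNAs. A single region marked 1480 genes, 307 genes had 2 regions and 53 had 3 or 4. The strongest summit lay inside a protein-coding gene for 746 regions, and for 698 of these every such gene was on the strand opposite to the lncRNA. A protein-coding start lay within 5 kb for 399 regions, 356 of them with the coding gene on the opposite strand, whereas 407 regions had no coding start within 100 kb. Distances to coding genes here and below run from the strongest summit to the nearest annotated coding start.

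lncRNA promoter regions were found less regularly across libraries than coding promoters. A deposited peak was present in all 6 lists for 1186 of them (52.5%), against 74.7% of the coding promoter regions and 42.7% of the regions elsewhere, and 415 were found in 1 list only. They were also narrower than coding promoters, with a median width of 459 bp against 922 bp, and 372 bp elsewhere. CpG-rich sequence, taken here as over 50% G and C and a CpG frequency over 0.6 of that expected in the 501 bp around the summit, marked 337 lncRNA promoter regions (14.9%), 61.6% of coding promoter regions and 2.02% of the others. CpG-rich promoters are typical of broadly expressed genes.

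Because the lists differ in length, only the top 77355 peaks of each, ordered by −log10 q, were ranked; the shortest list holds that many. A region's strength is its percentile rank in that list, near 100 for the strongest peaks and 0 for a region not among them. In each library 1361 to 1436 lncRNA promoter regions had a peak of this kind (1400, 1361 and 1399 in Sham; 1390, 1434 and 1436 in UNx). The groups overlapped in this count. The 1431 regions with such a peak in at least 3 libraries were tested, and 826 were not. A region that passed this filter through 1 group only had to differ between the groups.

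The summits of tested regions gathered just before the lncRNA start. The strongest summit was upstream of the start in 845 of 1431 regions and within 100 bp of it in 456 (31.9%), while 471 had it more than 500 bp away. In CpG-rich regions 127 of 257 summits (49.4%) lay within 100 bp and the median distance was 108 bp. In the other 1174 regions 329 (28.02%) lay within 100 bp, and the median distance was 320 bp.

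**Figure D1:**
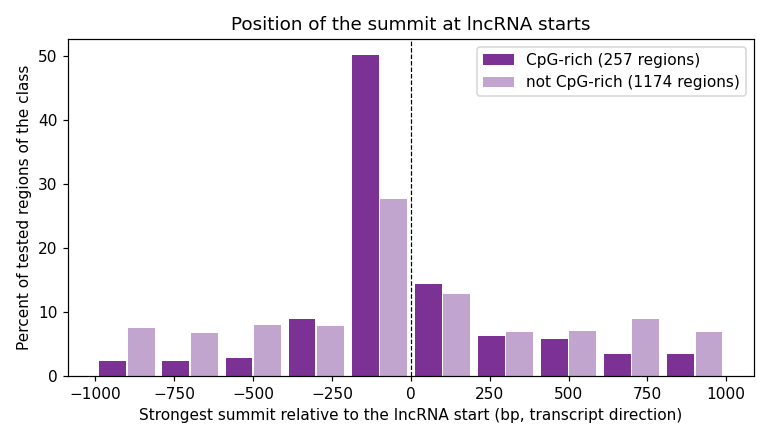
Position of the strongest summit relative to the lncRNA start (bp, negative values upstream) in bins of 200 bp; bars give the percent of the 257 CpG-rich and the 1174 other tested regions. The bin just upstream of the start holds 50.2% of the CpG-rich and 27.6% of the other regions, and the remaining bins hold 6.64% to 12.9% of the other regions.

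By strength, lncRNA promoters stood between coding promoters and regions elsewhere in all 6 libraries. Their median percentile was 54.6, 54.7 and 55.7 in the Sham libraries and 56.1, 55.8 and 55.7 in the UNx libraries. Coding promoters had medians of 80.8 to 84.3 and regions elsewhere 43.3 to 44.8, so the ranges over libraries did not overlap. The gap between lncRNA and coding promoters averaged −27.3 points over the libraries. With ranks corrected for GC content the same gap was −11.1 points. The difference remained within each CpG class: CpG-rich lncRNA promoters had medians of 73.1 to 74.98 against 85.1 to 88.7 for CpG-rich coding promoters, and the other lncRNA promoters 50.5 to 53.2 against 61.1 to 63.7.

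**Figure D2:**
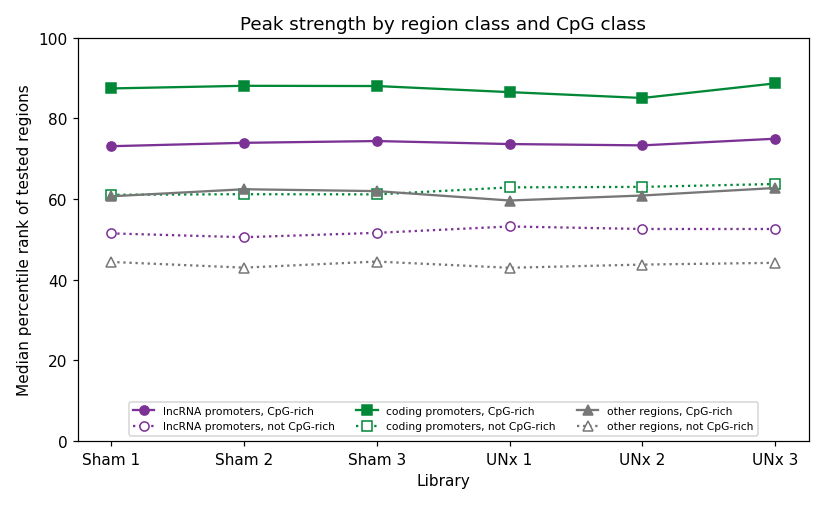
Median percentile rank of tested regions (vertical axis) in each of the 6 libraries (horizontal axis), by region class (colour and marker) and by CpG class (filled markers and solid lines for CpG-rich, open markers and dotted lines for the rest). CpG-rich lncRNA promoters lie at 73.1 to 74.98 in every library, below CpG-rich coding promoters and above lncRNA promoters that are not CpG-rich.

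Strength varied with type and position. Tested processed transcripts had a median of 61.0 (176 regions, 36.4% of them CpG-rich), lincRNAs 54.9 (808 regions), antisense transcripts 52.6 (435 regions) and bidirectional promoter lncRNAs 29.3 (12 regions). Regions with a summit within 100 bp of the lncRNA start had a median of 62.3, and those with a summit more than 500 bp away 43.8. Distance to coding genes moved the median little, with 52.3 for the 259 regions within 5 kb of a coding start and 55.3 for the 243 regions over 100 kb away. The 1 kb limit on the lncRNA start separated like from like: the 94 tested regions 900 to 1000 bp from a start had a median of 47.5 and the 77 regions at 1000 to 1100 bp a median of 46.4. At the coding limit, the 12 tested members 1000 to 1100 bp from a coding start had a median of 69.6, and the 23 regions excluded at 900 to 1000 bp one of 42.5.

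The strongest lncRNA promoter regions ranked among the top peaks of every list. Between 134 and 161 reached a percentile of 90 or above in a library (134, 149 and 140 in Sham; 155, 161 and 136 in UNx). The 8 with the highest means were Gm17552 (99.7, inside Carns1 on the opposite strand), Gm37494 (99.7), 4632415L05Rik (99.6), 1700012D14Rik (99.4), Gm13274 (99.4), Gm10433 (99.2), 4933429O19Rik (99.0) and AC110262.3 (98.7). Of these, 6 were CpG-rich, all but 4933429O19Rik and AC110262.3. Gm17552 had percentiles of 99.7, 99.9 and 99.98 in Sham and 99.8, 99.8 and 99.2 in UNx. Gm37494 had 99.5, 99.8 and 99.7 in Sham and 99.9, 99.8 and 99.5 in UNx. Both stood within 1 point of the top of the scale in every library, and the groups overlapped.

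Hosts of snoRNAs had the strongest promoters of the 6 lists of known lncRNAs. These genes are spliced and largely discarded after their introns have released the small RNAs that guide ribosomal RNA modification. Of 17 annotated, 10 had a lncRNA promoter region. A further 6, such as Gas5, Snhg1 and Zfas1, had their summit within 1 kb of a coding start and were left out by the rule. For Snhg14 no region had its strongest summit near a start. Weaker summits of a region were not searched, here and below. The 10 tested regions had a median percentile of 90.2, against 54.4 over all tested lncRNA promoters. Snhg8 had 98.5, 98.9 and 98.6 in Sham and 98.8, 97.8 and 98.4 in UNx. Dancr, which also keeps progenitor cells undifferentiated, had 98.7, 97.0 and 97.9 in Sham and 99.1, 99.2 and 97.6 in UNx. Epb41l4aos had 96.3, 97.8 and 98.8 in Sham and 95.4, 91.2 and 95.8 in UNx. Only Epb41l4aos had groups that did not overlap. Snhg17 was the weakest, with a mean of 39.5 and no peak among the strongest of the Sham 2 list.

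lncRNAs with roles in growth and stress ranked next. The 8 tested regions had a median of 78.2. 1700020I14Rik, known as Cyrano, an RNA that directs the destruction of a microRNA, had 96.2, 97.9 and 98.4 in Sham and 96.8, 96.8 and 98.1 in UNx. 1810026B05Rik, known as Chaserr, whose transcription restrains the neighbouring chromatin remodeller gene Chd2, had 97.9, 95.8 and 96.9 in Sham and 97.8, 95.9 and 97.6 in UNx. The groups overlapped for both, near the top of the scale, where a rise could hardly show. Dubr had a mean of 88.4, Crnde of 79.9, Lncpint of 76.4 and Pvt1, the neighbour of Myc, of 66.0. Trp53cor1, a p53 target next to Cdkn1a, had 2 regions, neither tested, with means of 4.16 and 0. For Dnm3os and Miat no region had its strongest summit near a start, and Tug1 was left out for a coding start.

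Among microRNA hosts the 10 tested regions had a median of 76.5. Mirt2 led with a mean of 95.7; it entered the list by its symbol and is named for infarcted heart muscle, not for a microRNA. Mir17hg, the host of the growth-promoting miR-17 cluster, had 83.1, 93.5 and 89.7 in Sham and 92.7, 93.6 and 86.7 in UNx. Mir22hg had 88.0, 89.2 and 76.7 in Sham and 89.7, 80.8 and 76.6 in UNx. The groups overlapped for both. Mir155hg, whose microRNA is best known from activated leukocytes, had a mean of 59.1. Mir124a-1hg and Mir124-2hg host a neuronal microRNA, and Mir142hg a blood cell microRNA. For these no region had its strongest summit near a start.

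Nuclear architectural lncRNAs were open but not among the strongest. Firre, an X-linked RNA that shapes nuclear organisation, had 82.8, 89.5 and 91.0 in Sham and 88.7, 87.0 and 92.5 in UNx. 2900097C17Rik, known as Norad, which binds Pumilio proteins, had 71.7, 87.5 and 74.4 in Sham and 80.4, 73.7 and 73.9 in UNx. Both sets of values overlapped. Neat1, the scaffold of paraspeckles, had 68.4, 51.1 and 61.8 in Sham and 71.7, 69.2 and 69.1 in UNx. Malat1, an RNA of nuclear speckles, had 57.4, 58.7 and 66.2 in Sham and 56.2, 44.1 and 69.8 in UNx. Neat1 was higher in every UNx library than in any Sham library, the nearest values being 69.1 and 68.4, and Malat1 overlapped. The 5 tested regions of this list had a median of 65.2.

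Imprinted and X-inactivation lncRNAs fell into genes with and without a region in the catalogue. Kcnq1ot1, which silences the imprinted Kcnq1 domain, had 88.5, 85.1 and 85.3 in Sham and 87.4, 86.3 and 80.2 in UNx. Ftx and Jpx, neighbours of Xist, had strongest regions with means of 61.0 and 48.9, and Airn, which silences Igf2r, had 60.01. For Xist itself, and for H19, Meg3, Mirg, Nespas, Rian and Snhg14, no region had its strongest summit near a start. Tsix had a peak in 1 list, outside the strongest peaks of that list. The mice were male, in which Xist is normally silent. The median of the 7 tested regions was 48.9.

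Of the lncRNAs beside developmental transcription factor genes, the strongest lay at a factor of the tubule itself. Hnf4aos, antisense to Hnf4a, a regulator of the proximal tubule programme, had 2 regions with means of 81.2 and 77.6. The first had 82.2, 81.0 and 75.9 in Sham and 83.3, 80.1 and 84.8 in UNx. The groups overlapped. In the Hox clusters Hoxd3os1 had a mean of 68.9, while Haglr had 23.5 and Hoxaas3 14.2. For Fendrr, Hotair, Hottip, Hoxaas2, Hoxb5os and Six3os1 no region had its strongest summit near a start. A further 5, such as Lhx1os and Wt1os, were left out for a coding start. The median of the 9 tested regions was 59.0.

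Few lncRNA promoter regions were called as different between UNx and Sham. A region that was not called may still differ. A limma fit over all 74767 tested regions, with Benjamini-Hochberg adjustment over all of them, called 6 lncRNA promoter regions at an adjusted p under 0.05, 3 stronger and 3 weaker after UNx. These are 0.419% of the 1431 tested, against 0.789% of all tested regions. Of the weaker ones, Gm31816 entered the test through Sham alone and so had to differ. The coding promoters were called at 0.428% and regions elsewhere at 0.883%. At an unadjusted p under 0.05 the fit marked 271 lncRNA promoters (18.9%; 152 stronger, 119 weaker) against 18.6 percent of all tested regions. The Sham and UNx values did not overlap for 347 (24.2%) against 23.7 percent of all. Of these, 202 were stronger after UNx (14.1%, against 11.9% of all regions) and 145 weaker (10.1%, against 11.7%). The median difference, UNx minus Sham, was 0.421 points over lncRNA promoters and −0.0116 over all tested regions, and 746 lncRNA promoters (52.1%) were above 0 against 49.9% of all.

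**Figure D3:**
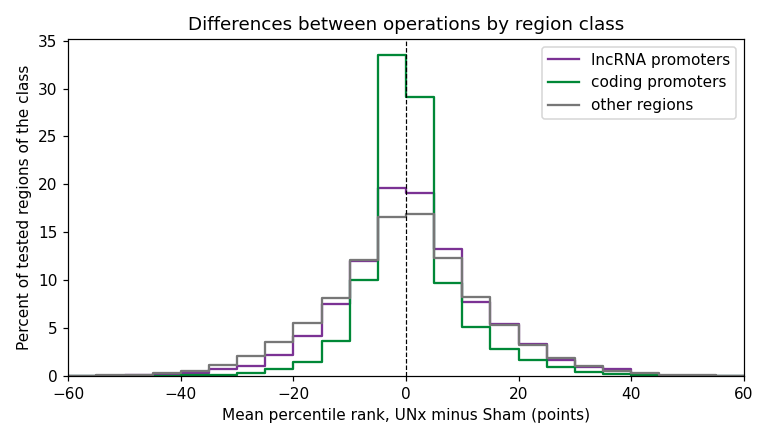
Difference in mean percentile rank between UNx and Sham (horizontal axis, points, bins of 5) as the percent of tested regions of each class (vertical axis), for 1431 lncRNA promoters, 14015 coding promoters and 59321 other regions. All 3 curves centre near 0; from the lower to the upper quartile lncRNA promoters span −6.19 to 7.67 points and coding promoters −2.99 to 3.65 points.

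Gm14549, an antisense lncRNA on chromosome X 18977 bp from Slc25a5, which encodes a mitochondrial ADP/ATP carrier, had the largest rise among the called regions. Its region (chrX:36814252-36814832) had percentiles of 28.5, 35.2 and 10.7 in Sham and 74.6, 60.4 and 64.9 in UNx. All UNx values were above all Sham values, and the means were 24.8 ± 12.6 (SD, n = 3) and 66.6 ± 7.27 (SD, n = 3). The difference was 41.8 points (SE 9.14, limma adjusted p = 0.0420). The sequence printed for Gm14549 holds 1 CG pair.

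Gm10390 is transcribed antisense within Rbm19, a gene for a ribosome biogenesis protein, on chromosome 5. Its region (chr5:120138259-120139001) had 39.1, 38.3 and 35.0 in Sham and 76.8, 58.9 and 87.4 in UNx. Every UNx library was higher, by 36.9 points on average (SE 7.90, limma adjusted p = 0.0400). 1110002O04Rik, a lincRNA on chromosome 1 187643 bp from Hs6st1, a heparan sulfate sulfotransferase gene, had 67.7, 64.3 and 66.3 in Sham and 80.2, 87.4 and 88.7 in UNx. That rise was 19.3 points (SE 4.42, limma adjusted p = 0.0478), and again the groups did not overlap. Its summit lay 912 bp past the start, close to the limit of the rule.

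Gm31816, a lincRNA on chromosome 9 168061 bp from Cadm1, a cell adhesion gene, had the largest fall among the called regions. Its region (chr9:47361916-47362270) had 37.4, 58.5 and 46.1 in Sham and was not among the strongest peaks of any UNx list, hence listed at 0 in all 3. Deposited peaks of any strength were present in 5 of the 6 lists, so the region was not closed in every UNx library. The difference was −47.3 points (SE 10.7, limma adjusted p = 0.0472). It entered the test through the Sham libraries alone and so had to differ, and its p-value is no evidence of a change.

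Gm40770, a lincRNA, had 70.5, 66.8 and 68.2 in Sham and 16.96, 45.9 and 20.1 in UNx. The difference was −40.8 points (SE 9.02, limma adjusted p = 0.0430). 4930447M23Rik, a lincRNA on chromosome 2 26832 bp from Msrb2, a mitochondrial methionine sulfoxide reductase gene, had 78.8, 81.1 and 85.9 in Sham and 61.2, 60.2 and 51.3 in UNx. This was a difference of −24.3 points (SE 5.35, limma adjusted p = 0.0420). In both, all 3 UNx libraries were lower than all 3 Sham libraries. Several of the called regions had their summit well inside the transcript. It lay 620 bp past the start at Gm10390, 658 bp at Gm31816 and 487 bp at 4930447M23Rik. At Gm14549 it lay 143 bp before the start. Of the 6 called, 3 had the summit more than 500 bp from the start, as had 471 of the 1431 tested. None of the 6 called regions was CpG-rich. CpG-rich regions were 257 of the 1431 tested, and 6 calls are too few to tell whether this class was called less often.

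For the nearest protein-coding gene of each of the 6, 1 promoter region was looked up. None of these passed the test, and values are given for 5. Slc25a5 and Hs6st1 had 3 promoter regions each, and their other regions are not given. Slc25a5 had 88.8, 90.5 and 82.3 in Sham and 86.5, 89.9 and 84.7 in UNx, a difference of −0.194 points (limma adjusted p = 0.982). Rbm19 differed by 1.15 points (limma adjusted p = 0.914) and Hs6st1 by −6.83 (limma adjusted p = 0.334). Cadm1 differed by 0.406 (limma adjusted p = 0.905) and Msrb2 by 0.0758 (limma adjusted p = 0.992). Whether each lncRNA promoter moved differently from its coding neighbour was not tested.

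The calls did not hold under most other ways of processing. None of the lncRNA promoters was called after correcting ranks for GC content, after ranking by fold enrichment, or without any one of Sham 1, Sham 2, Sham 3, UNx 1 or UNx 3; without UNx 2 there were 5 calls, 2 of them among these 6. Over all tested regions these fits called 2 with GC correction, 3 by fold enrichment, 73, 96 and 35 without Sham 1, 2 and 3, and 31 and 49 without UNx 1 and UNx 3. In those limma fits with 0 calls, 192 to 247 lncRNA promoters had an unadjusted p under 0.05. Without a Sham library 1 of the 6, Gm31816, was not tested, as too few lists held it. With GC correction the differences were of similar size, such as 42.4 points at Gm14549 and −46.2 at Gm31816. In each setting where they could be followed, the 6 regions kept their direction.

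The next in order by p, taken only from regions with separate groups, were not called. Among rises, Ino80dos, with its summit 1214 bp from the start of the chromatin remodeller gene Ino80d, had 86.9, 86.6 and 86.1 in Sham and 94.8, 94.2 and 94.6 in UNx (limma adjusted p = 0.0600). Gm36372 had 65.7, 71.7 and 69.8 in Sham and 82.0, 89.5 and 85.2 in UNx (limma adjusted p = 0.0635). Among falls, Gm44714, 108382 bp from the insulin receptor substrate gene Irs2, had 81.8, 83.9 and 82.5 in Sham and 68.7, 54.8 and 34.7 in UNx (limma adjusted p = 0.0519). 8030443G20Rik had 64.8, 69.1 and 61.3 in Sham and 29.3, 35.1 and 30.3 in UNx (limma adjusted p = 0.0539). The groups were separate in all 4 by this choice. Of the 4, Ino80dos had the tightest values, with SDs of 0.396 in Sham and 0.315 in UNx (n = 3 each).

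**Figure D4:**
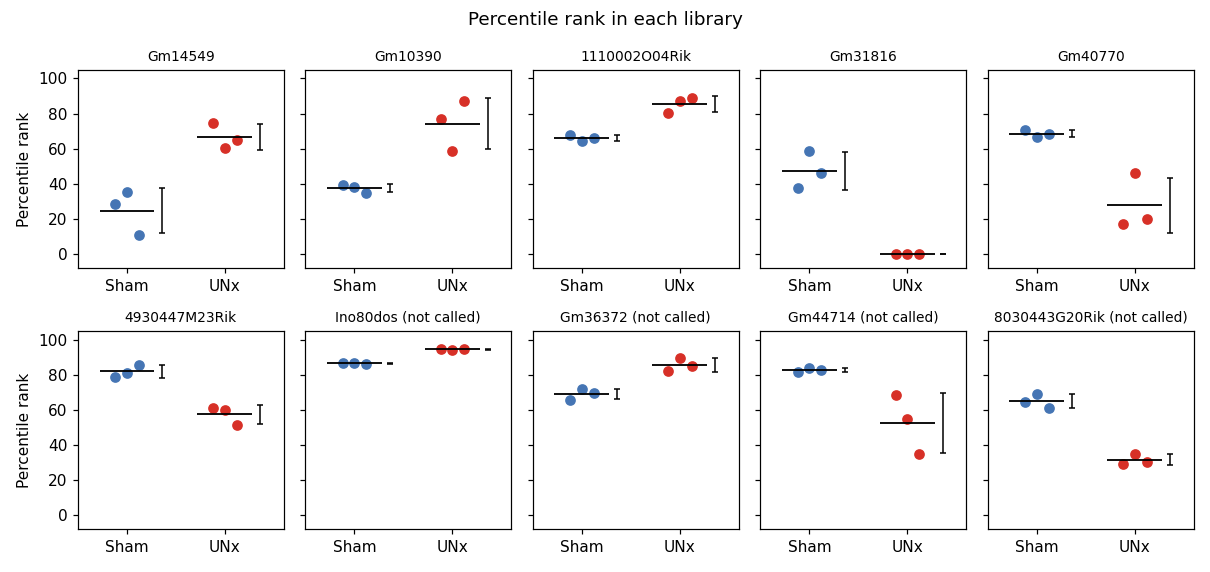
Percentile rank (vertical axis) in the 3 Sham (blue) and 3 UNx (red) libraries for the 6 called regions and the 4 next in order, marked as not called; horizontal lines are means and bars give ± 1 SD. In every panel the Sham and UNx points are separate, which was a condition of the choice, and Gm31816 is at 0 in all 3 UNx libraries.

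None of the 6 lists of known lncRNAs held a called region. The smallest adjusted p was 0.419 in the nuclear architectural list, 0.262 among snoRNA hosts, 0.136 among microRNA hosts and 0.561 among imprinted and X-inactivation lncRNAs, all by limma. It was 0.120 among lncRNAs beside developmental transcription factor genes and 0.243 among growth and stress lncRNAs by the same limma fit. The value of 0.120 is that of Hoxaas3, which entered the test through UNx alone and so had to differ. It also counts among the higher regions of its list below. The direction was mixed: 2 of 5 tested regions were higher in UNx in the nuclear list, 2 of 10 among snoRNA hosts, 3 of 10 among microRNA hosts, 3 of 7 in the imprinted list, 7 of 9 beside transcription factor genes and 5 of 8 in the growth list. The median differences were −1.84, −1.34, −0.973, −1.62, 6.66 and 0.890 points in the same order. Neat1 differed by 9.57 points (SE 6.13, limma adjusted p = 0.419) and Epb41l4aos by −3.45 points (SE 1.62, limma adjusted p = 0.262).

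Mir99ahg, which hosts miR-99a, let-7 and miR-125b family members and has several start sites, had the lowest p among microRNA hosts. The region at its first start had 89.7, 85.8 and 87.3 in Sham and 78.4, 82.4 and 71.4 in UNx (difference −10.2 points, limma adjusted p = 0.136). The region of lowest mean had 31.5, 43.0 and 39.9 in Sham and 10.4, 13.4 and 15.8 in UNx (difference −25.0 points, limma adjusted p = 0.210). At the remaining region it had 64.4, 70.6 and 56.8 in Sham and 37.8, 60.2 and 49.8 in UNx (difference −14.7 points, limma adjusted p = 0.314). Values were lower on average at all 3 tested regions, which share 1 gene, and none was called. Hoxaas3 was at 0 in all Sham libraries and at 17.6, 33.6 and 33.8 in UNx (limma adjusted p = 0.120), and entered the test through UNx alone.

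lncRNA promoters whose nearest coding gene belonged to a list relevant to the tubule or to injury were also uncalled. Beside S1 genes, 11 regions were tested; 9 had a higher mean in UNx, with a median difference of 5.87 points and a smallest limma adjusted p of 0.0987, at a Gm14964 region that entered the test through UNx alone and so had to differ. Some of the 11, such as the 2 Hnf4aos regions, were also counted as higher beside developmental transcription factor genes. The directions in these lists are therefore not independent. Of the 11, 3 belong to Gm14964, an antisense transcript inside Nrxn2 and nearest to Slc22a12, the urate transporter gene. Its main region had 34.5, 29.3 and 25.6 in Sham and 52.7, 52.6 and 55.4 in UNx. A second Gm14964 region was at 0 in all Sham libraries and at 24.9, 26.8 and 67.6 in UNx, and the other was at 1.96, 0 and 0 in Sham and at 16.1, 41.2 and 24.2 in UNx. The 3 regions share 1 stretch of DNA; the main and the last were separate between the groups, and for the second this was fixed by the filter. Gm14437, inside Slc13a3, a dicarboxylate transporter gene, on the opposite strand, went the other way, with 25.9, 41.1 and 21.03 in Sham and 0 in all UNx libraries (limma adjusted p = 0.116), and entered through Sham alone. Gm14968, also nearest to Slc22a12 but 103180 bp from its start, was lower in every UNx library. It had 69.5, 79.8 and 69.0 in Sham and 56.7, 59.1 and 67.4 in UNx (limma adjusted p = 0.293). Beside fatty acid oxidation genes only Gm31479, nearest to Fgf21, was tested, with 59.4, 59.7 and 56.7 in Sham and 65.1, 67.5 and 62.6 in UNx (limma adjusted p = 0.605).

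Beside immediate early and injury genes, 11 regions were tested, 7 with a higher mean in UNx and a median difference of 2.29 points. Gm33524, inside Pebp4 on the opposite strand and nearest to the early growth response gene Egr3, had 74.9, 74.0 and 73.2 in Sham and 88.3, 83.9 and 90.6 in UNx (limma adjusted p = 0.0701). The region at the Egr3 start itself was at 0 in every library except Sham 2 (10.7). The groups of Gm33524 were separate. The other region with separate groups, 2610035D17Rik, was lower in UNx. It had 86.6, 85.7 and 88.0 in Sham and 83.2, 78.6 and 57.5 in UNx (limma adjusted p = 0.168). Its nearest coding start, that of the transcription factor gene Sox9, was 390388 bp away. Gm11175, nearest to Jund, had 70.3, 84.7 and 60.8 in Sham and 57.7, 67.3 and 40.1 in UNx, which overlap (limma adjusted p = 0.246). Gm36026, beside the keratin gene Krt8, had 88.7, 81.7 and 85.7 in Sham and 93.9, 84.8 and 94.3 in UNx, which overlap (limma adjusted p = 0.303). Beside cell cycle and growth genes, 5 regions were tested and 1 had a higher mean in UNx, with a median difference of −2.71 points and a smallest limma adjusted p of 0.432. Lockd, which lies downstream of Cdkn1b, the gene of a cell cycle inhibitor, had 88.0, 94.1 and 85.5 in Sham and 82.9, 86.2 and 93.9 in UNx. 4930519A11Rik, nearest to Mycn, had 81.9, 88.5 and 76.7 in Sham and 79.1, 70.3 and 78.2 in UNx. Both overlapped between the groups.

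Presence was also counted in the full deposited lists. A peak was present in all 3 UNx lists and no Sham list for 29 lncRNA promoter regions (1.28%), against 1.25 percent of all merged regions. The reverse, all 3 Sham lists and no UNx list, held for 7 (0.310%) against 0.504 percent of all. Most were weak: 8 of the 29 were in at least 3 strongest-peak lists and so tested. Gm28707, 2946 bp from Hivep1, was at 0 in Sham and at 33.5, 16.7 and 36.8 in UNx, and Gm7467, 1030 bp from the start of the circadian gene Clock, at 0 in Sham and at 13.5, 34.9 and 29.7 in UNx. Both were picked after their values were seen and chosen for this pattern, so no test is given.

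Short promoter motifs were searched on both strands of the 201 bp around each strongest summit. The GC box (GGGCGG), bound by Sp factors, was present in 18.96% of the 2257 lncRNA promoter regions, 52.4% of coding promoter regions and 13.0% of all regions. Within lncRNA promoters it was in 59.1% of CpG-rich and 11.9% of other regions. Gm17552 and Gm37494 both hold it in the sequences printed above, and none of the 5 called sequences does. The ETS motif (CCGGAAGT) was in 0.975% of lncRNA and 4.71% of coding promoters, with 0.904% of all regions. The CRE (TGACGTCA), bound by CREB, was in 0.620%, 1.996% and 0.515% in that order, and the NRF1 motif in 0.177%, 0.960% and 0.170%. The YY1 motif was in 0 of 2257 lncRNA promoter regions, 0.765% of coding promoters and 0.113% of all regions. Over the whole lncRNA set ETS, CRE and NRF1 were thus at shares near those of all regions. Within CpG-rich lncRNA promoters they were in 3.26%, 2.37% and 0.593% (11, 8 and 2 regions). CpG-rich coding promoters held them in 6.89%, 2.77% and 1.41%. YY1 was in 0% of CpG-rich lncRNA and 1.15% of CpG-rich coding promoters.

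Other motifs had another order. The AP-1 motif (TGANTCA), bound by Fos and Jun, was in 8.42% of lncRNA promoter regions, 3.35% of coding promoters and 7.56% of all regions, and in 2.37% of CpG-rich lncRNA promoters. The direct repeat bound by HNF4 (CAAAGTCCA) was in 1.42%, 0.753% and 2.17%, and CTCF in 0.399%, 0.0115% and 0.331%. The TATA box (TATAAA) was in 5.32%, 3.25% and 7.01%, CCAAT in 21.1%, 26.7% and 22.2%, and the E-box (CACGTG) in 5.94%, 6.45% and 4.59%. The PPAR direct repeat and the glucocorticoid receptor motif were found in 1 lncRNA promoter region each. A GC box of 6 letters can overlap a CG-rich stretch of any origin, and a match is a description of letters, not a bound site.

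The lists differed in strength: they held 77355 to 100999 peaks each, with median −log10 q from 12.1 in Sham 2 to 26.5 in UNx 3, and read depth is unknown because the lists hold no counts. The promoters of all 8 S1 marker genes were open in all 6 lists, with mean percentiles of 92.5 at Slc34a1 and 94.5 at Lrp2. The immune markers Ptprc and Cd68 were at 0 in every library, as were Slc12a3, Aqp2 and Pdgfrb, while Scnn1g (89.9), Umod (67.4), Col1a1 (65.1) and Slc12a1 (43.5) were open. Of the 3 endothelial markers, Pecam1, Flt1 and Kdr had values of 0 to 20.3 in Sham libraries and 0 in all UNx libraries. Slc12a1, a marker of the loop of Henle, had 52.4 to 60.2 in Sham and 19.4 to 38.2 in UNx. Umod, the other loop marker, was not lower, with 65.1, 66.2 and 65.0 in Sham and 68.9, 74.2 and 65.0 in UNx, which overlap. The part of these genes in the differences between the operations was not tested. Tubule segments hold several cells, and fewer open cells and less open chromatin per cell cannot be told apart.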

How the data were processed

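The members and all lists were chosen with earlier results of these data known. Per the submitters' processing notes, cutadapt 3.4, Bowtie, SAMtools, Picard and MACS2 2.2.7.1 were used with build mm10; the filter applied to the lists is not given in the sources used here. The authors deposited 1 peak list per library, with a fold enrichment (ratio), a −log10 p and a −log10 q per summit, which were used only to rank peaks within a list. Lists were not pooled.

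Overlapping intervals (1 bp or more) were merged. The top 77355 peaks of every list by −log10 q were given percentile ranks. A display score that the authors deposited per peak was not used. GENCODE M21 (basic) transcript starts on GRCm38 gave the classes. Regions among the strongest peaks of at least 3 of 6 lists (74767) were fitted with limma 3.58.1 in R 4.3.3 (lmFit, eBayes with trend and robust, two-sided, Benjamini-Hochberg, threshold 0.05), with no block. Regions were assembled in Python 3.11.15 with pandas 2.3.3 and pysam 0.24.0.

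Regions named are the called ones (filled up to 5 per direction by smallest p among separate groups), the 8 of highest mean, the 3 highest per lncRNA list and the 2 highest per coding list; others named were chosen after their values were seen. On simulated ranks of 74767 regions for UNx against Sham, the fit made 0 calls with none changed and recovered 0% of 200 regions shifted by 1, 74.5% of those shifted by 2 and 82% of those shifted by 4 normal scores. Some genes and sequences are not reported here. Alternatives covered ranking, list length, windows, merging, GC correction, the model and leaving out each library. For 3 libraries against 3 no interval that needs read depth is given.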

Additional observations from a re-analysis of the deposited data

How the results depend on the processing

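The count of called lncRNA promoters (6) was 0 with the 20000 strongest peaks, all deposited peaks, a −log10 q of at least 5, ranking by fold enrichment, GC-corrected ranks, testing every region whatever its number of lists, and with the replicate number as a block, with or without GC-corrected ranks. None of the 6 was then called (with the 20000 strongest peaks only 2 of the 6 were tested), while 83 to 283 lncRNA promoters had an unadjusted limma p under 0.05 in these fits; over all regions 0 to 183 were called, against 590. It was 3 with a window of 500 bp, 20 with normal scores of the ranks and 22 with limma array weights, and 1 of the 6 was called without trend and robust fitting. Leaving out 1 library gave 0 to 5 calls, with 0 to 2 of the 6 among them. The cause was not tested. The replicate numbers did not pair the samples: correlations of same-numbered deviations were 0.00807, −0.100 and −0.0495.

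The median difference (0.421) was −0.400 with 20000 peaks, 2.91 with all deposited peaks, 3.65 with a −log10 q of at least 5 and −0.00576 with GC-corrected ranks, and 0.126 to 0.895 leaving out 1 library. UNx lists held on average 33.3 more lncRNA promoters than Sham lists; this was −6.33 with 20000 peaks, 136 with all deposited peaks, 144 with a −log10 q of at least 5, 5.67 with a window of 500 bp and 20.5 to 48.3 leaving out 1 library. The gap to coding promoters (−27.3) was −21.1 with 20000 peaks, −22.1 by fold enrichment, −22.8 with a window of 500 bp, −11.1 with GC-corrected ranks, −23.5 with the comprehensive annotation, an alternative chosen after seeing the data, and −26.2 to −25.6 leaving out 1 library. Over the named regions and their alternatives, 677 values stayed on their side of the threshold, 80 lost the call and 8 gained it. Staying on a side includes staying uncalled. Each of the 6 called regions was called in only 4 or 5 of the 15 to 19 alternatives that tested it. Where called, 0 changed direction. Values that stayed uncalled could change sign, such as Kcnq1ot1, at −1.65 points in the main fit and 0.219 with a −log10 q of at least 5.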

Other observations

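Some genes with 3 tested regions are given here as values, chosen after they were seen; no difference between regions was tested. At 3110039I08Rik on chromosome 9, the strongest region had 70.5, 83.9 and 74.6 in Sham and 63.1, 53.4 and 69.3 in UNx, while a nearby weaker region had 9.01, 0.226 and 0 in Sham and 31.6, 14.8 and 44.9 in UNx. At Zmiz1os1, antisense to the transcriptional coactivator gene Zmiz1, 1 region had 38.7, 5.44 and 10.2 in Sham and 43.5, 56.9 and 58.1 in UNx, and the other 2 had means of 60.8 and 53.8 and overlapped or lay lower. 2410080I02Rik, beside the glucocorticoid-responsive factor gene Klf9, had an upstream region at 34.8, 55.8 and 40.4 in Sham and 74.3, 69.2 and 57.3 in UNx; its other 2 regions overlapped between the groups, with differences of 7.01 and 14.6 points. None of these regions passed the limma test at an adjusted p under 0.05.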
